A study of Mus musculus with 63 samples.

Results

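The 8 early lymphoid genes Dntt, Ly6d, Rag1, Rag2, Satb1, Mef2c, Cd93 and Ebf1 were taken by symbol from a table of 23420 gene symbols, and all 8 had a row. They were followed in single mouse cells sorted as common helper innate lymphoid progenitors (CHILPs), the marrow cells that give rise to helper innate lymphoid cells (ILCs). The wild-type group (WT) held 29 cells labelled C57BL/6. The other group (iR9, also labelled C57BL/6) held 34 libraries of GFP+ cells, which per the series title were derived from pluripotent stem cells. They came from marrow of Rag2-/-Il2rg-/- recipients 4 weeks after transplantation. Cells of both groups were CD45.2+ and gated as lineage-negative, positive for CD127 and α4β7, negative for CD135 and CD25, and intermediate or negative for Sca1. The recipients lack Rag2, one of the 8 genes, in their own cells, so they make no mature T or B lymphocytes of their own. The labels do not spell out what iR9 stands for and name no animal, age or culture. Each group is therefore 1 sample of many cells, no test between groups was possible, and the values below are descriptions with their spread over cells.

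Lymphoid progenitors begin to transcribe a set of lymphoid genes before they choose a lineage. RAG1 and RAG2 together form the recombinase that cuts antigen receptor genes, and terminal deoxynucleotidyl transferase, the product of Dntt, adds bases at the cut ends. Ly6d marks common lymphoid progenitors that lean towards the B lineage, and Ebf1 encodes a factor that commits cells to that lineage. SATB1 and MEF2C are transcription regulators of early lymphoid programmes, and Cd93 encodes a surface protein of early haematopoietic and B lineage progenitors. Helper ILCs carry no rearranged antigen receptors.

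The upstream sequences of Dntt, Rag1 and Rag2 are shown because these genes encode the recombination enzymes and each has a single start in the RefSeq promoter table (build GRCm38.p6), in which 6 of the 8 genes matched. Ly6d and Cd93 had no entry. Each line gives the 250 bases before the start, 5′ to 3′ on the gene's strand, with capitals for the E-box letters CANNTG, which read the same on both strands.
Dntt: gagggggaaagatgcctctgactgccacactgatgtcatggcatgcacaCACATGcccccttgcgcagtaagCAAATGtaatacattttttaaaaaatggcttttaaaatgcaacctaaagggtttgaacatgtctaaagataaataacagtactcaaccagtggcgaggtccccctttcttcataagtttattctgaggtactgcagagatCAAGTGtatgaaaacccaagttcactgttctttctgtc
Rag1: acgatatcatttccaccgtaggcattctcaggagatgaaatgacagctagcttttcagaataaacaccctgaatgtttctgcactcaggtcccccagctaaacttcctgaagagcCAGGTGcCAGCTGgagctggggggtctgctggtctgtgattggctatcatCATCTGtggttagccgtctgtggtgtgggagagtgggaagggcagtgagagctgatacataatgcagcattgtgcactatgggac
Rag2: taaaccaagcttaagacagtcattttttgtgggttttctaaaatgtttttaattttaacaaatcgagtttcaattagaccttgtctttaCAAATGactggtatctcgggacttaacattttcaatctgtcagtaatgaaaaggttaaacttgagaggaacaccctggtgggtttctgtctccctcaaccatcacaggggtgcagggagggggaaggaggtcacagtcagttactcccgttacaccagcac
They lie at chr19:41029025-41029274 on the plus strand, chr2:101649533-101649782 on the minus strand and chr2:101624462-101624711 on the plus strand. CANNTG occurred 3 times before Dntt, 3 times before Rag1 and 1 time before Rag2, and 66.2% of 32851 promoters in the table held it within the same 250 bases. On both strands, the narrower form CAGGTG, itself a CANNTG, occurred before Rag1 (1 match) and in 17.2% of all promoters, and TGTGGT before Rag1 (2 matches) and in 14% of all promoters. The letters TGGGAA had 1 match before Rag1, with 21.6% over all promoters. The first TGTGGT shares bases with the last CANNTG before Rag1. These matches describe letters in a window and not binding.

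On GENCODE M21 (GRCm38, the assembly that mm10 names) Rag2 lies on chromosome 2 from 101624718 to 101632529 and Rag1 on the opposite strand from 101638282 to 101649501, with 5752 bases between them. Exons of a further gene, B230118H07Rik, share 80 bases with those of Rag1 and 208 with those of Rag2. The strand setting of the authors' counting is not given in the sources used here. B230118H07Rik was listed at 0 in the WT cells that held Rag transcripts. Dntt lies on chromosome 19 (41029275 to 41059525), Ly6d on chromosome 15 (74762056 to 74763620), Satb1 on chromosome 17 (51736187 to 51833290), Mef2c on chromosome 13 (83504034 to 83667080), Cd93 on chromosome 2 (148436640 to 148443563) and Ebf1 on chromosome 11 (44617317 to 45008091).

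The unit was TPM, a length-corrected transcript abundance that sums to an equal total in each library, so read depth is unknown. For 15 iR9 cell numbers 2 libraries existed, with title suffixes 2 and 3. Their Pearson r across genes was 0.974 to 0.992, against at most 0.411 for different numbers, and each such pair was averaged as 1 cell, which left 19 iR9 cells. All WT titles but only 3 iR9 titles end in suffix 1, so suffix and group can hardly be told apart. The median number of genes reaching 1 TPM was 2938 in WT cells (range 1189 to 5939) and 1732 in iR9 cells (1514 to 3238). Gapdh, a gene used by all cells, was listed at 0 in 5 of the 48 cells, so a value of 0 is a listing and not proof of absence. As a check of the sort label, Il7r, which encodes CD127 of the gate, reached 100 TPM in 18 WT and 13 iR9 cells. Id2, which is not part of the gate, did so in 26 WT and 19 iR9 cells. WT cells 5-1, 6-1, 16-1 and 29-1, which reached 100 TPM of Dntt, held Id2 at 15.65, 63.55, 26.31 and 216.2 TPM. Il7r stood at 125.7, 201.9, 3.75 and 57.35 TPM in them, so none reached 100 TPM for both genes. At least 3 mast cell or myeloid genes reached 10 TPM in WT cells 4-1, 21-1, 26-1 and 28-1 and in iR9 cell 12-1. Without these 5 cells Dntt was high in 16% of WT cells in place of 13.8%, Satb1 in 16% in place of 17.2% and no gene in any iR9 cell.

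The genes were found at high levels in few WT cells and in no iR9 cell. A value of at least 100 TPM was called high and a lower value above 0 a trace. Of 232 values in WT cells, 20 were high and 67 were traces, and 12 of 29 cells held at least 1 high gene (41.4%, exact binomial 95% interval 23.5 to 61.1%, counting error only). In iR9 cells, 0 of 152 values were high and 6 were traces. With 0 of 19 iR9 cells, the same exact interval reaches 17.6%, and the limit of 3 counts is 15.8%. For 6 of the 8 genes at least 1 WT cell was high and no iR9 cell was. Over all genes high in at least 1 WT cell, 37% were likewise high in no iR9 cell, and over those high in 1 to 5 WT cells 52.2%. By number of high WT cells that share was 68.4% for 1 (as Rag2), 53% for 2 (as Cd93), 40.7% for 3 (as Ly6d), 32.7% for 4 (as Dntt) and 23.7% for 5 (as Satb1 and Mef2c). Dntt, Ly6d and Rag2 were moreover at 0 in all iR9 libraries, as were 18.9% of the genes high in 1 to 5 WT cells. In the other direction, 15.4% of genes high in 1 to 5 iR9 cells were high in no WT cell.

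**Figure D1:**
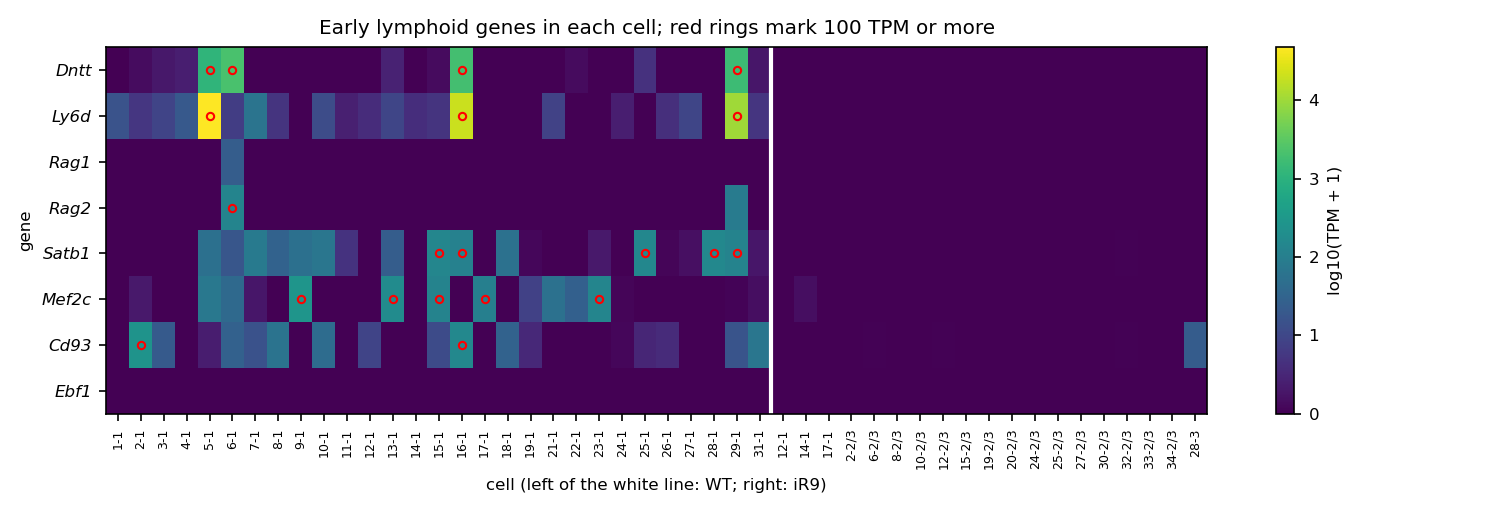
Level of the 8 genes (rows) in each WT cell (left of the white line, 29 cells) and iR9 cell (right, 19 cells), as log10(TPM + 1); red rings mark 100 TPM or more. Dntt was high in WT cells 5-1, 6-1, 16-1 and 29-1, Satb1 and Mef2c were high in 5 cells each, and no iR9 cell has a ring.

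Dntt was the most sharply divided of the recombination genes. It stood at 2137 TPM in WT cell 6-1, 1931 in 16-1, 1586 in 29-1 and 1121 in 5-1. The other 25 WT cells held at most 3.65 TPM, 8 of them a trace and 17 a value of 0. The lowest high value was thus 307 times the highest trace, and the 4 high cells carried 99.9% of all Dntt TPM in WT cells. All 34 iR9 libraries were at 0. In mean log2(TPM + 1) Dntt averaged 1.76 ± 3.68 (SD over 29 cells) in WT cells and 0 in iR9 cells.

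Rag2 and Rag1 were found in 2 and 1 of these same cells. Rag2 was at 126.8 TPM in cell 6-1, its only high value, and at 85.87 TPM in cell 29-1. Rag1 was at 22.73 TPM in cell 6-1, below the high level. Both genes were at 0 in all other WT cells and in all iR9 libraries, so every Rag value above 0 lay in a cell that was high for Dntt. In cell 6-1, the only cell with both recombinase genes, the Dntt level per length was also the highest of the series. With 1 high cell in 29, the Rag2 count rests on cell 6-1 alone.

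Ly6d, which encodes a GPI-anchored surface protein, reached the highest level of the 8 genes. It stood at 47378.4 TPM in WT cell 5-1, 19773.8 in 16-1 and 10269.3 in 29-1, 3 of the 4 Dntt cells. Cell 6-1, with the highest Dntt and both Rag genes, held only 6.02 TPM of Ly6d. The next value was 63.27 TPM in cell 7-1, so the lowest high value was 162 times the highest trace. Traces were common in WT cells (18 of 29, median 5.28 TPM, from 1.48 TPM), yet all 34 iR9 libraries were at 0. In mean log2(TPM + 1) WT cells averaged 3.27 ± 4.15 (SD over 29 cells). With TPM below 100 set to 0 the difference from iR9 cells was -1.49 in place of -3.27, so the size of this difference depends on the traces.

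**Figure D2:**
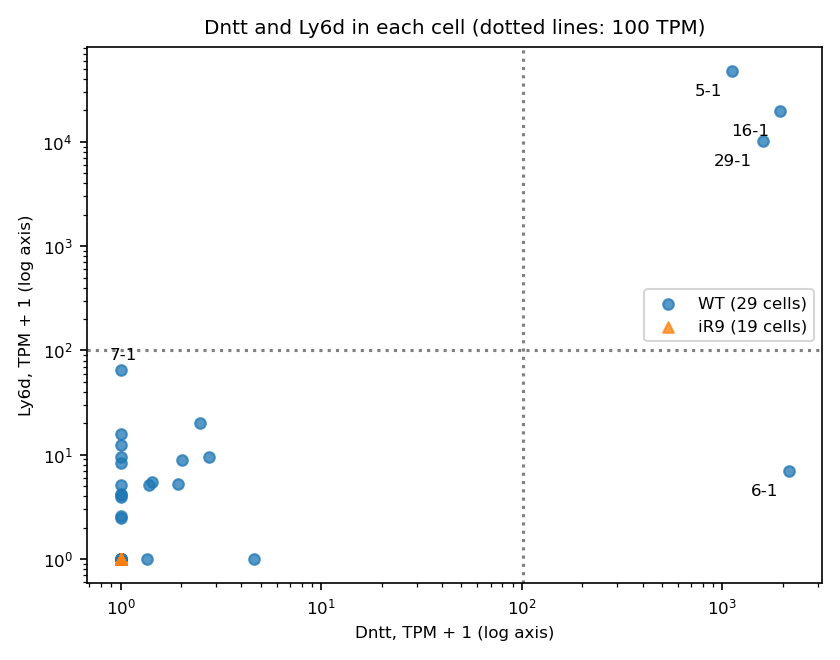
Ly6d against Dntt in each cell, as TPM + 1 on log axes; circles are WT cells, triangles iR9 cells, which all lie at 0 TPM of both genes over WT cells there, and dotted lines mark 100 TPM. WT cells 5-1, 16-1 and 29-1 are high for both genes, while 6-1 has 2137 TPM of Dntt and 6.02 TPM of Ly6d.

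The regulators Satb1 and Mef2c were spread over more WT cells at lower levels, with no gap between high values and traces. Satb1 was at 153.2 TPM in cell 28-1, 142.3 in 25-1, 141.7 in 15-1, 122.4 in 29-1 and 114.1 in 16-1. A further 14 WT cells held traces of up to 83.40 TPM, and 10 were at 0, so the 100 TPM line cuts through a continuous range. Of the Dntt cells, 5-1 and 6-1 held 52.08 and 17.20 TPM. The only iR9 value was 0.083 TPM, the mean of 0.17 and 0 in the libraries of number 32. The difference of mean log2(TPM + 1), iR9 minus WT, was -2.90 (WT 2.90 ± 3.01, SD over 29 cells).

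Mef2c was high in a different set of WT cells. It stood at 272.5 TPM in cell 9-1, 180.4 in 13-1, 131.4 in 23-1, 123.5 in 15-1 and 101.9 in 17-1, none of them high for Dntt. Traces in 10 cells reached 72.71 TPM in cell 5-1 and 38.02 in 6-1. In iR9 cells it was at 0.48 TPM in cell 14-1 and at 0 in the others, with a difference of -2.18. Satb1 and Mef2c were both high only in cell 15-1, of 9 WT cells high for either.

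Cd93 was at 255.0 TPM in WT cell 2-1 and 148.7 in 16-1, with traces of 0.23 to 67.84 TPM in 15 further cells. The iR9 cell 28-3 held 21.68 TPM, the only iR9 value above 1 TPM among all 8 genes, and this cell number had no second library. The other 3 iR9 traces of Cd93 were at most 0.087 TPM. The difference was -2.11, and -0.53 with TPM below 100 set to 0. Ebf1 was listed at 0 in all 63 libraries.

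Measured over all cells, 7 of the 8 genes had a lower mean in iR9 cells and Ebf1 had no difference, against a lower mean in 81.4% of all genes that passed the filter below. Dntt, Ly6d, Satb1, Mef2c and Cd93 were lower by at least 1 in mean log2(TPM + 1), while Rag1 (-0.16) and Rag2 (-0.46) were not. These are also the genes that passed the filter of TPM of at least 1 in 10% of cells, and Rag1, Rag2 and Ebf1 did not. All 5 passed through WT cells: Dntt reached 1 TPM in 8 WT cells, Ly6d in 21, Satb1 in 15, Mef2c in 11 and Cd93 in 16, and Cd93 in 1 iR9 cell was the only such iR9 value. The filter thus nearly fixed their direction, and the shares over all genes that follow are background against which nothing is read for these 5. Genes of the lists further below can also pass through WT cells alone. The same limit therefore holds for the counts and medians of those lists. Of the 7421 genes that passed, 44.5% were lower by at least 1 and 5.15% higher, and their median difference was -0.88, so most genes had the lower mean in iR9 cells. Over all 8 genes, filtered or not, the median was -1.94. After quantile normalization, which brought the median of all genes to -0.12, 20.5% of all genes were lower and 20.6% higher by at least 1. On that scale Ly6d had a difference of -4.55 and Cd93 one of -1.89, with Dntt, Satb1 and Mef2c in between. In the 3 iR9 cells of suffix 1, which share their suffix with all WT cells, none of the 8 genes was high and the only trace was Mef2c in cell 14-1. With 3 cells, among them 12-1 with its mast cell and myeloid genes, nothing is read from this about the suffix.

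The iR9 libraries that share a number, taken as repeats of 1 cell from their correlation, showed how often a trace recurred. The titles do not say at which step the libraries of a number were split, so which losses this recurrence covers is unknown. Of iR9 library values of at least 100 TPM over all genes, 99.3% were at least 100 TPM in the second library of the same number as well. Of values from 10 to below 100 TPM, 97.6% were above 0 in the second library. This held for 53.3% of values from 1 to below 10 TPM and for 31.3% of those below 1 TPM. Among the 8 genes, 4 values above 0 occurred in these 15 pairs, each in the library of suffix 3 and at most 0.173 TPM, and 0 of them recurred in the partner. Libraries of suffix 3 listed more genes above 0 (median 3135, range 2728 to 3482) than those of suffix 2 (median 2130, range 1759 to 2637). The part of this difference in the missing recurrence was not tested. WT cells have 1 library each, so their traces could not be checked this way.

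Ly6d traces belong to a gene with one of the highest values in the table. Of genes at 100 TPM in 1 to 5 WT cells, only 3 exceeded 10000 TPM anywhere in WT cells (Ly6d, Lyz2 and Apoe), and they had traces in 15 to 18 further WT cells. Genes with a highest value of 1000 to 10000 TPM, 366 in all, had a median of 5 trace cells (quartiles 3 and 8), against 8 for Dntt. Genes at 100 to 1000 TPM also had a median of 5, against 14 for Satb1, 15 for Cd93, 10 for Mef2c and 1 for Rag2.

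**Figure D3:**
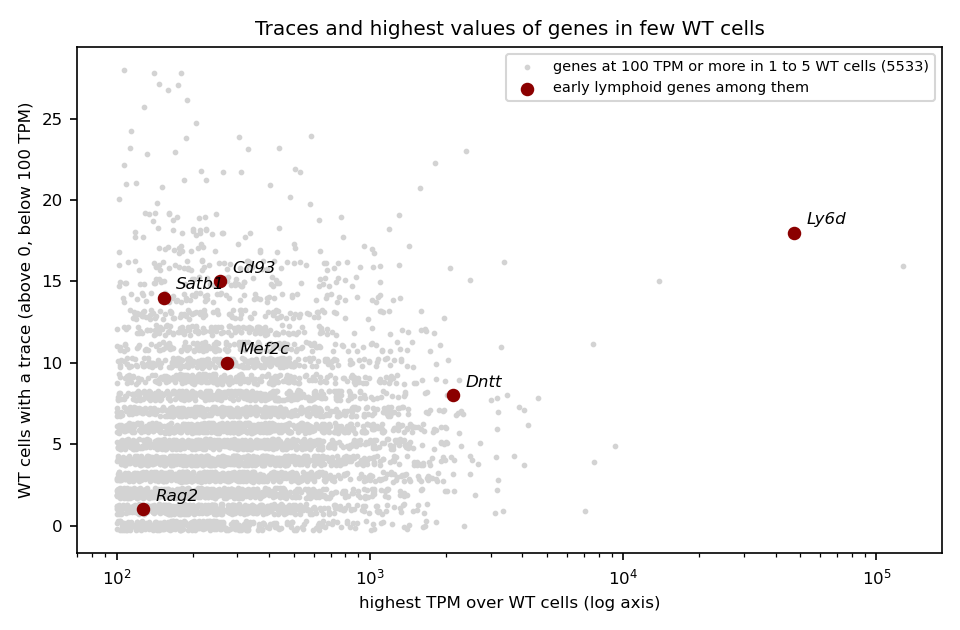
Number of WT cells with a trace (above 0 and below 100 TPM) against the highest TPM in any WT cell (log axis), for 5533 genes at 100 TPM or more in 1 to 5 WT cells; grey points are spread slightly in height to show overlap, and dark red points are the early lymphoid genes. Ly6d combines 47378.4 TPM with 18 trace cells, and Dntt has 8 trace cells.

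Seen per cell, the genes did not appear as one block. Of 29 WT cells, 17 held no high gene, 7 held 1, 3 held 2, 1 held 3 and 1 held 4. Cell 16-1 was high for Dntt, Ly6d, Satb1 and Cd93, and 29-1 for Dntt, Ly6d and Satb1, so the count of 2 cells with at least 3 high genes (6.90%, 0.846 to 22.8%) falls to 1 without either. Cells 5-1 (Dntt, Ly6d), 6-1 (Dntt, Rag2) and 15-1 (Satb1, Mef2c) held 2. Over the 29 WT cells, Pearson r of log2(TPM + 1) was 0.79 for Dntt and Ly6d, 0.72 for Rag1 and Rag2, 0.68 for Dntt and Rag2 and -0.33 for Mef2c and Cd93. These are descriptions of single libraries that differ in genes detected, and the values for Dntt, Ly6d and Rag rest on at most 4 cells.

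The gene most like Dntt over the WT cells, among 4932 genes high in at least 3 of them, was Gpr56, an adhesion G protein-coupled receptor, with r = 0.98. It was at 315.9, 113.3, 131.2 and 147.4 TPM in cells 5-1, 6-1, 16-1 and 29-1, and at most 0.54 TPM in the other 25 WT cells. It was at most 0.25 TPM in iR9 cells. Among the Dntt cells, Gpr56 fell in the order 5-1, 29-1, 16-1 and 6-1, the reverse of the order of Dntt. The r of 0.98 thus rests on which cells held both genes, and their levels did not rise together within those cells. It was also picked as the highest r among the 4932 genes. Next came the cyclin gene Ccnb2 (r = 0.84) and the histone gene Hist1h2ae (0.80). Ly6d was most like Gpr56 (0.83), Dntt (0.79) and Casc4 (0.68). For Satb1 the closest were Myb, a factor of haematopoietic progenitors (0.74), and Fdps, an enzyme of the mevalonate pathway (0.72). For Mef2c they were Itgb1 (0.66), Irf3 (0.66) and Dnttip1 (0.65).

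Of the recombination and end-joining list, which holds the partners of RAG and TdT, 9 of 10 genes that passed the filter had a lower mean in iR9 cells, with a median difference of -0.91, close to that of all genes. Hmgb1 and Hmgb2, DNA-bending proteins that help RAG cut, were high in 22 and 15 WT cells and in 14 and 6 iR9 cells. Hmgb2 stood at 1750, 2493, 373.5 and 2154 TPM in cells 5-1, 6-1, 16-1 and 29-1, and reached at most 739.9 TPM in the other WT cells. Hmgb1 stood at 780.4, 1269, 1069 and 1410 TPM in the same cells, above the highest other WT value of 760.7 TPM. Xrcc6, encoding the Ku70 end-binding protein, was high in 9 WT cells and 1 iR9 cell (difference -2.56). The ligase gene Lig4 and the polymerase gene Poll reached 100 TPM in no cell.

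Early lymphoid transcription factors had the lower mean in 8 of 9 genes that passed, a share near the 81.4% of all genes. Their median of -2.59 lay below the -0.88 of all genes, and 8 were lower by at least 1, against 44.5% of all genes. Ikzf1, encoding Ikaros, averaged 4.52 ± 3.25 in WT (SD over 29 cells) and 0.75 ± 2.08 in iR9 cells (SD over 19 cells). Tcf12 and Myb, high in 5 and 7 WT cells, were high in no iR9 cell. Tcf3, encoding the E proteins E12 and E47, was high in 7 WT cells and 1 iR9 cell, and stood at 269.5 TPM in cell 29-1. Surface genes of lymphoid progenitors were lower in 10 of 11, again near the share of all genes. Their median was -1.63, and 8 were lower by at least 1. Cd24a was high in all 4 Dntt cells (228.7 to 617.5 TPM), in 3 of the other 25 WT cells and in 1 iR9 cell. Cd27 was high in 13 WT cells and in no iR9 cell.

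The 4 Dntt cells differed from one another in the genes of neighbouring lineages. Cell 5-1 held 6 of 12 plasmacytoid dendritic cell genes at 100 TPM, among them Cox6a2 (7069.5 TPM), Irf8 (2043 TPM) and Siglech (1704 TPM), and Ly6d itself is on that list. The other 3 Dntt cells held 1 or 2. Of the rest of that list, Ccr9, Klk1, Cd209d and Spib were at 0 in cell 5-1, Pacsin1 at 0.42 TPM and Runx2 at 49.25 TPM. Bst2, also among the 6, was high in 12 WT cells, all 4 Dntt cells included, and in 10 iR9 cells. Cell 5-1 also held Flt3 at 1367 TPM, although cells were sorted as negative for its product CD135, and the B lineage genes Blnk (887.2 TPM) and Blk (219.0 TPM). Cells 6-1, 16-1 and 29-1 were at 0 for Flt3, Siglech and Blnk. They held Lck, a kinase of T cell and ILC signalling, at 1753, 1131 and 2389 TPM and Cpa3, a carboxypeptidase of mast cells and early progenitors, at 1018, 1168 and 3212 TPM. Cell 5-1 was at 0 for both.

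Of 16 B lineage genes, 11 were at 0 in all 4 Dntt cells and 5 were above 0 in at least 1. Among the 11 were Pax5, Cd79a, Cd79b, Vpreb1, Vpreb3 and Igll1, and Ebf1 was at 0 as well. The 5 were Blnk and Blk in cell 5-1 as given above, Foxo1 (90.18 TPM) and Pou2af1 (12.55 TPM) in cell 6-1, each the highest WT value, and Il7r in all 4 cells (3.75 to 201.9 TPM). Of the list, 3 genes passed the filter, Cd79b, Lef1 and Il7r, and all 3 had a lower mean in iR9 cells. Cd79b was high in 7 other WT cells, and Vpreb1, a surrogate light chain gene, was at 1450 TPM in 1 iR9 cell. Of T lineage genes 5 of 9 that passed had the lower mean in iR9 cells and 4 the higher (median -0.69). In the Dntt cells 6 of 16 T lineage genes were at 0 throughout, among them Cd3g, Ptcra, Cd8a and Cd8b1, and 10 were above 0 in at least 1 cell. Cell 6-1 held 4 at 100 TPM and 29-1 held 5, against a median of 3 and at most 6 in the other 25 WT cells. Besides Lck, Lat, an adaptor of T cell receptor signalling (636.8 and 783.9 TPM), was high in both 6-1 and 29-1. So was Hes1, a Notch target (167.9 and 633.6 TPM). Bcl11b, a T lineage factor, was at 151.5 TPM in 6-1, and Cd247 (249.5 TPM) and Trat1 (116.9 TPM) were high in 29-1. Of the other 25 WT cells, Lck was high in 13, Lat in 11, Hes1 in 14 and Trat1 in 11. Bcl11b was high in 2 of them and Cd247 in 3, so these genes were not particular to the Dntt cells. Cd3e and Cd3d were at 8.44 and 4.86 TPM in 6-1. Tcf7, encoding TCF-1, was at 2355 and 2334 TPM in cells 16-1 and 29-1, 168.9 in 6-1 and 2.06 in 5-1. Of 16 ILC progenitor genes 14 had the lower mean (median -2.79), against 81.4% and a median of -0.88 over all genes. Id2, whose product blocks E proteins, had its 4 lowest WT values in the Dntt cells, at 15.65 to 216.2 TPM against a WT median of 5121 TPM.

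Cell cycle genes and the number of genes detected differed among the 4 Dntt cells. Of 20 cell cycle genes, cell 6-1 held 18 at 100 TPM, 29-1 held 9, 5-1 held 7 and 16-1 held 2. The other 25 WT cells held a median of 1, with 10 at most, and iR9 cells held at most 3. All 15 that passed the filter had the lower mean in iR9 cells (median -1.33). Over all genes that passed, 81.4% did so and the median was -0.88. Mcm2, high in 7 WT cells, was at 0 in all iR9 cells, so it passed through WT cells alone. Cells 29-1 and 6-1 had 5589 and 5161 genes at TPM of at least 1. Cells 5-1 and 16-1 had 2538 and 2788, below the WT median of 2938. The highest WT number, 5939, was in cell 8-1, which held 10 cell cycle genes at 100 TPM and had Dntt at 0. The part of cell cycle or of genes detected in the Dntt pattern was not tested. Myeloid and erythroid genes were high in none of the 4 cells, with summed levels of at most 21.65 and 78.40 TPM, and of 12 mast cell and basophil genes at most 1 was high. Of the genes that passed, the lower mean lay in iR9 cells for 4 of 5 plasmacytoid dendritic cell genes (median -1.54), 3 of 4 myeloid genes (-0.43), 2 of 4 mast cell genes (0.025) and 0 of 3 erythroid genes (2.51). The summed erythroid level had a median of 0.51 TPM in the 4 Dntt cells, 1.02 TPM in the other WT cells and 682.7 TPM in iR9 cells, and Klf1 and Gata1, which did not pass, had the lower mean in iR9 cells.

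**Figure D4:**
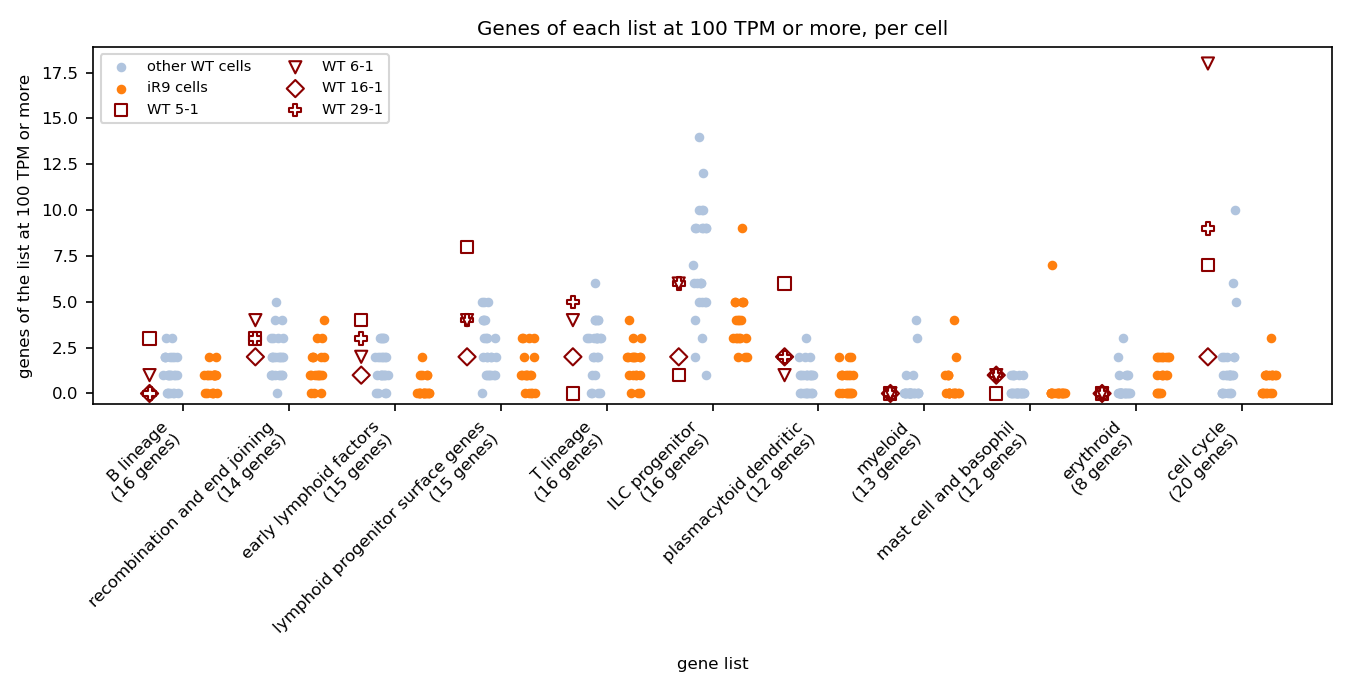
Number of genes at 100 TPM or more in each gene list (list sizes under the names) per cell; dark red open symbols are the 4 WT cells high for Dntt, blue points the other 25 WT cells and orange points the 19 iR9 cells, with points spread sideways. Cell 5-1 is the highest for plasmacytoid dendritic cell genes (6) and lymphoid progenitor surface genes (8), and cell 6-1 for cell cycle genes (18).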

How the data were processed

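Single cells were sorted and polyA RNA was amplified and sequenced, per the labels' protocols. The authors deposited TPM per gene symbol and library. The submitters' processing notes list bcl2fastq 2.16.0.10, StringTie 1.3.4, HISAT2 2.1.0 and SAMtools 0.1.19 beside genome build mm10, without saying what each did. TPM keeps no depth, so no count model was fitted and how precise a low value is remains unknown. The members, lists and thresholds were chosen with earlier results of these data known.

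Each of the 63 columns matched 1 title. Rows whose symbol had become a date (27) were left out. Same-number iR9 libraries of suffixes 2 and 3 were averaged in TPM. Differences are of mean log2(TPM + 1), which understates the change of low genes. The filter was TPM of at least 1 in 10% of 48 cells. Shares have exact Clopper-Pearson 95% intervals, and the share of 0 in iR9 cells is also given the limit of 3 counts. No cell was removed, and no doublet caller was run on the sorted cells. Of each of 11 further gene lists, up to 3 genes with the largest absolute difference (at 100 TPM in at least 3 cells) and up to 3 with the highest median TPM in the cells with at least 3 high members were named. For each member high in at least 3 WT cells, the 3 genes with the highest Pearson r over WT cells were named, predicted symbols and pseudogenes left out. Defining markers of other lineages were named for a named cell. Named after their values were seen were Id2, Il7r as a sort check, B230118H07Rik, Apoe, Poll, Lig4, Flt3, Blnk, Blk, Siglech, Cox6a2, Irf8, Pacsin1, Runx2, Lyz2, Vpreb1, Foxo1, Pou2af1, Bcl11b, Cd247, Klf1, Gata1 and the lineage genes given as 0. Python 3.11.15 was run with SciPy 1.17.1, pandas 2.3.3, NumPy 2.4.6 and matplotlib 3.10.9, and the functions were tested on simulated data. Some genes that this rule names are not reported here.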

Additional observations from a re-analysis of the deposited data

How the results depend on the processing

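Each of the 7 differences of means kept its sign or reached 0 in all 12 settings (suffixes, same-number libraries, shared range of genes detected, scaling, pseudocounts, other-lineage cells, traces set to 0), and iR9 cells had 0 high values in each setting at 100 TPM. Dntt, Ly6d, Rag1 and Rag2 were at 0 in all iR9 libraries, so their differences could not turn positive. The highest iR9 library values were 0.166 TPM for Satb1, 0.48 for Mef2c and 21.68 for Cd93. The signs and the lack of high values were thus nearly fixed beforehand and are no measure of robustness. Of 412 recomputed values, 387 stayed within 1 SD over cells, the binomial interval or 1.5 times the count. The others were shares of WT cells. At 1 TPM they were 72.4% for Ly6d, 51.7% for Satb1, 37.9% for Mef2c, 55.2% for Cd93, 41.4% for at least 3 genes and 100% for at least 1. At 10 TPM, Satb1 had 44.8%, Cd93 37.9%, at least 3 genes 24.1% and at least 1 gene 75.9%, which at 50 TPM was 62.1%. At 500 TPM, Rag2, Satb1, Mef2c, Cd93 and at least 3 genes had 0% and at least 1 gene 13.8%. Ly6d had 34.5% after quantile normalization, where Rag2 had 0%, as it did in the shared range of 1514 to 3238 genes. Without the 4 Dntt cells, a setting chosen after seeing the data, Dntt, Ly6d, Rag2 and at least 3 genes had 0%, and the Dntt difference was -0.34. These shares of 0% were fixed beforehand, because every cell high for Dntt, Ly6d, Rag2 or at least 3 genes was among those removed. Leaving out each cell in turn gave Rag2 shares of 0% to 3.57%. Dntt, Ly6d, Satb1, Mef2c and Cd93 were lower by at least 1 in most settings, and 4 of these 5 were with a pseudocount of 10, with traces set to 0 and without the Dntt cells. Over all genes, a pseudocount of 0.1 gave 4239 lower and 620 higher by at least 1, and one of 10 gave 1333 and 203, against 3305 and 382. No paired analysis was possible because no result here rests on a test.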

Other observations

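Other genes of the Ly6 family, chosen after seeing the data, were not high in the same set of cells as Ly6d. Ly6e was high in 27 of 29 WT and 18 of 19 iR9 cells, with a mean log2(TPM + 1) of 10.62 ± 2.28 in WT and 11.58 ± 1.87 in iR9 cells (SD over cells). Ly6a, which encodes Sca1, was high in 4 WT and 8 iR9 cells, and none of these WT cells was among the 4 with Dntt, where it was at most 2.93 TPM. Ly6c2 was high in 2 WT cells, one of them 5-1 at 413.3 TPM, and at 0 in iR9 cells. The 3 WT cells high for Ly6d thus held Ly6d and Ly6e together, at 9130 TPM of Ly6e in 5-1, 4658 in 16-1 and 5486 in 29-1. These values lie above the Ly6e median of 2039 TPM over WT cells and of 4110 TPM over iR9 cells. Cell 6-1, with 6.02 TPM of Ly6d, held Ly6e at 2987 TPM, also above the WT median. As Ly6e was high in 27 of 29 WT cells, being high beside Ly6d is not particular to these cells.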
